A study of Homo sapiens with 18 samples.

Results

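The genes described are 10 of the 61806 in the gene count table of 2 human hepatoma cell lines, namely the receptors PPARA, PPARD, PPARG, RXRA and RXRB, the coactivators PPARGC1B, NCOA1 and MED1, and the corepressors NCOR1 and NRIP1. They were chosen by name, through the Ensembl gene ID of each symbol, by a rule that holds no measured value, and earlier results of these data were known when they were chosen. HepG2 comes from a human liver tumour, and its derivative APOA4-KO was grown from single colonies after exons of the apolipoprotein gene APOA4 had been cut with CRISPR-Cas9. Both lines were sequenced without treatment (0 h) and after 24 h and 48 h of hypoxia, with 3 libraries for each of the 6 groups and 18 in all. The groups analysed here hold no library of cells kept outside hypoxia for 24 h or 48 h, so hypoxia and time in culture cannot be told apart, and the edit cannot be told apart from everything else in which the lines differ. Nothing in the labels says whether the 3 libraries of a group came from separate cultures, so the tests measure the spread between these libraries, which may be technical.

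The peroxisome proliferator-activated receptors (PPARs) are nuclear receptors that bind fatty acids and their derivatives and switch on genes of lipid uptake, storage and oxidation. Each binds DNA as a pair with a retinoid X receptor (RXR), at repeats of a hexamer close to AGGTCA. Without a ligand the pair can hold corepressors, and with a ligand it recruits coactivators that modify chromatin and link it to RNA polymerase. In liver, PPARA is known above all for fatty acid oxidation in fasting, PPARD for glucose and lipid use in many tissues, and PPARG, which is the master regulator of fat cells, for lipid storage.

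All 10 genes passed the filter on low counts and were among the 19743 genes tested. The totals of the libraries lay between 76481820 and 91604947 counts, and a count need not be a single read pair, because a count of 4 was between 2.66 and 3.12 times as frequent as its neighbours. APOA4 was still counted in all libraries of the edited line. In CPM, the count scaled by the size of its library with TMM, it was 8.95, 9.67 and 8.46 in HepG2 against 8.35, 7.80 and 6.99 in APOA4-KO before hypoxia, 19.8, 19.8 and 21.0 against 8.25, 7.51 and 8.04 after 24 h, and 18.9, 19.9 and 21.7 against 7.65, 8.54 and 8.44 after 48 h. The lines were far apart in it at 24 h and 48 h (log2 fold changes of −1.35 and −1.29) and close at 0 h (−0.23, edgeR adjusted p = 0.0404). The call at 0 h was lost with library size alone, median-ratio size factors or no filter on low counts. It was also lost with only the groups compared (adjusted p = 0.167) or with the replicate number as a block. Leaving out HepG2 0 h replicate 1 or 2 ended it too, as did APOA4-KO 0 h replicate 2 or 3. Without APOA4-KO 0 h replicate 3 the value was −0.16 (adjusted p = 0.185). All 12 of the listed targets of the hypoxia-inducible factor rose from 0 h in both lines at both times, where 11.4% to 23.9% of all tested genes rose. EPO, a check of the hypoxia, rose in APOA4-KO by 0.75 to 24 h and 0.60 to 48 h on the log2 scale (edgeR adjusted p = 2.18e-06 and 2.87e-05). In HepG2 it rose by 1.35 to 48 h (adjusted p = 5.80e-09), but its change to 24 h was 0.14 (adjusted p = 0.330). Without HepG2 0 h replicate 3 that change was 0.28 (adjusted p = 0.0370). Of 8 hepatocyte markers, all had counts in every library and their summed level was between 42882 and 58017 CPM, whereas 12 markers of other liver cell types summed to 45.1 to 72.3 CPM. Of these, the macrophage marker MARCO was at 0 in all 18 libraries, CSF1R in 9 and CD163 in 8, with at most 35 counts, while the endothelial markers PECAM1 and VWF had counts in all libraries, the leukocyte marker PTPRC in all but 1, and the pericyte marker PDGFRB had 2236 to 4215. The endothelial marker CDH5 had at most 209 counts and was at 0 in 1 library. DCN, LUM and COL1A2 were at 0 in 11, 5 and 3 libraries, with at most 124 counts, and COL1A1 had 55 to 449. Their part in the results was not tested. APOA4-KO 24 h replicate 1 stood apart on the first principal components, at a distance of 31.2 from the centre of its group against at most 17.1 for any other library. Without it, no call of a member in the 24 h comparisons of APOA4-KO changed, and the largest shift of a log2 fold change was 0.124, that of PPARGC1B from 0 h to 24 h in APOA4-KO. The share of counts from the mitochondrial genome was 8.22 to 8.48% in HepG2 and 9.01 to 9.31% in APOA4-KO before hypoxia, 8.84 to 8.96% and 5.34 to 5.42% after 24 h, 6.50 to 6.67% and 5.17 to 5.19% after 48 h, and its part in the results was not tested.

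Between the lines, PPARG and PPARA had the largest changes among these genes: PPARG was 3.80-fold higher in APOA4-KO at 48 h, and PPARA was 2.37-fold higher at 24 h. Before hypoxia the differences were small. A gene was called at a Benjamini-Hochberg adjusted p under 0.05 over all tested genes (edgeR quasi-likelihood test), and the fold limit was a log2 fold change of 1 or more in size. At 0 h, 4 of the 10 genes were higher in APOA4-KO and 0 were lower, where 12.9% of all tested genes were higher and 17.6% lower, and 0 passed the fold limit, which 4.31% of all genes passed. At 24 h, 6 were higher and 3 lower (23.6% and 24.6% of all genes), and 2, PPARA and NCOA1, passed the fold limit (7.77% of all genes). At 48 h, 8 were higher and 0 lower (23.5% and 27.3%), and 1, PPARG, passed the fold limit (13.6%). The median log2 fold change of the 10 genes was 0.04 before hypoxia, 0.70 after 24 h and 0.43 after 48 h, where all tested genes gave −0.01, 0.01 and −0.04. The libraries of both lines did not overlap for 5 genes at 0 h, 9 at 24 h and 9 at 48 h, where 43.9%, 55.4% and 58% of all tested genes did not overlap. Scaling by library size alone moved the median of all genes by −0.15 in the comparison at 48 h and by −0.16 in the change of APOA4-KO to 48 h, so small changes at 48 h are read relative to that shift.

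**Figure D1:**
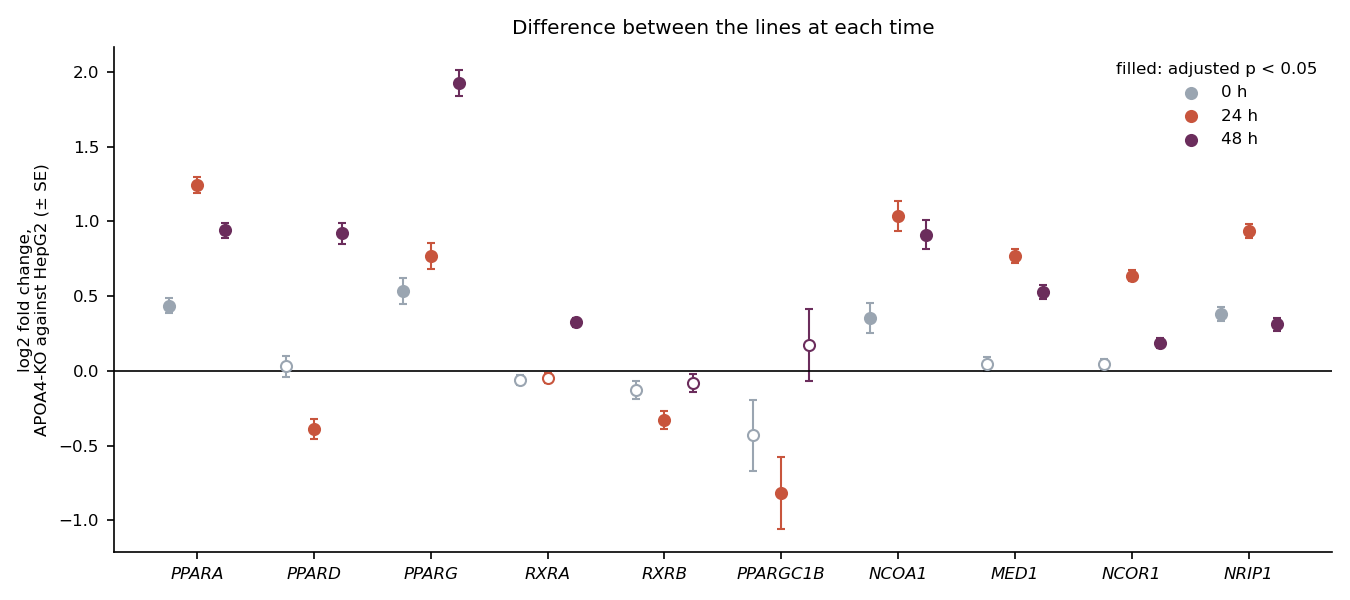
Log2 fold change of each gene between APOA4-KO and HepG2 at 3 times, with bars of 1 standard error; filled points passed an adjusted p of 0.05 and open points did not. PPARG at 48 h (1.93) is the highest point, PPARD lies below 0 at 24 h (−0.39) and above it at 48 h (0.92), and PPARGC1B has the widest bars.

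Within the lines, more of these genes rose in APOA4-KO than in HepG2. In HepG2, 1 gene rose and 5 fell from 0 h to 24 h (11.4% and 18.3% of all tested genes), and 3 rose and 3 fell to 48 h (13.1% and 14.6%), with 0 past the fold limit at either time (3.08% and 2.18% of all genes). In APOA4-KO, 6 rose and 3 fell to 24 h (21.5% and 22.8%), and 8 rose and 1 fell to 48 h (23.9% and 25.9%). PPARG was the 1 gene past the fold limit at each time in APOA4-KO (5.88% of all genes at 24 h and 12.2% at 48 h). The libraries of 0 h did not overlap those of hypoxia for 7 and 9 of the 10 genes in HepG2 at 24 h and 48 h (42% and 40.6% of all genes) and for 9 and 9 in APOA4-KO (53% and 57.8%). The 2 comparisons of a line share its 0 h libraries. Whether the lines changed by different amounts was tested as an interaction. To 24 h it was positive in 5 genes and negative in 1 (16.8% and 15.4% of all genes), with 0 past the fold limit (2.59%), and to 48 h it was positive in 7 and negative in 0 (18.6% and 17.8%), with 1, PPARG, past the limit (7.42%). Median changes of the 10 genes were −0.16 and −0.15 in HepG2 and 0.45 and 0.35 in APOA4-KO at 24 h and 48 h, against −0.03, −0.03, −0.01 and −0.07 over all tested genes.

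**Figure D2:**
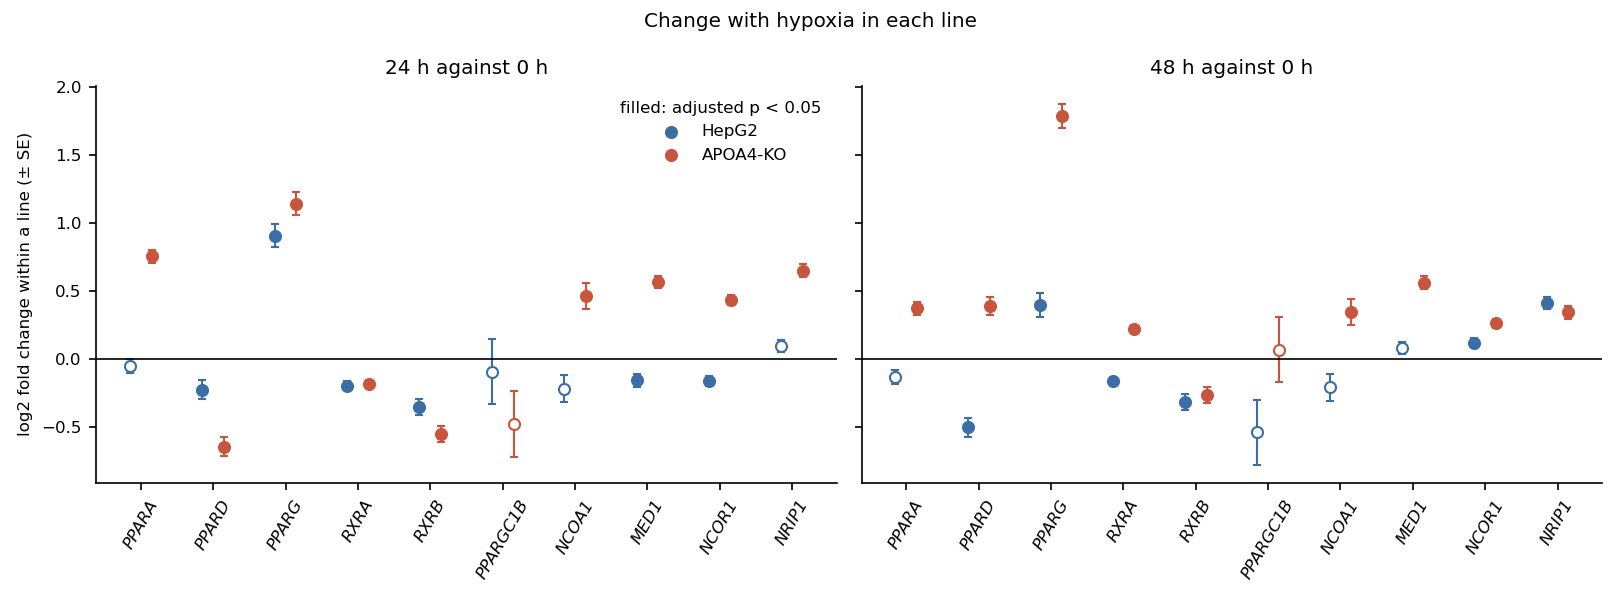
Log2 fold change from 0 h to 24 h (left) and to 48 h (right) in HepG2 and APOA4-KO, with bars of 1 standard error; filled points passed an adjusted p of 0.05. PPARA, NCOA1, MED1 and NCOR1 rose at 24 h in APOA4-KO and lie below 0 in HepG2, while RXRB fell in both lines at both times.

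The levels of different genes can be compared only per length, for which the deposited FPKM values were used. RXRB had the highest FPKM of the 10 genes in all 6 groups, from 13.2 ± 0.210 (SD, n = 3) in APOA4-KO at 24 h to 21.2 ± 1.05 in HepG2 at 0 h, and PPARGC1B had the lowest, from 0.10 ± 0.017 to 0.190 ± 0.0346. In HepG2 at 0 h the order below RXRB was RXRA (10.5 ± 0.206), PPARD (9.07 ± 0.726), MED1 (6.21 ± 0.0917), NCOR1 (4.21 ± 0.0874), NRIP1 (3.71 ± 0.126), PPARA (2.06 ± 0.0611), NCOA1 (1.09 ± 0.0208) and PPARG (0.747 ± 0.0666), and no neighbours in it overlapped between libraries. In APOA4-KO at 24 h MED1 (9.46 ± 0.210) had passed RXRA (8.83 ± 0.136), and PPARD (5.90 ± 0.428) overlapped NCOR1 (5.86 ± 0.105). At 48 h PPARD (11.04 ± 0.857) overlapped RXRA (10.7 ± 0.258) below RXRB, and PPARG (3.43 ± 0.0200) stood above PPARA (3.30 ± 0.0929). The place of PPARG in this order depends on its length, because the FPKM values imply 12310 bases for it where its exons in GENCODE 29 cover 4535. For the other 9 genes the implied length was 1.02 to 1.20 times the exon length.

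**Figure D3:**
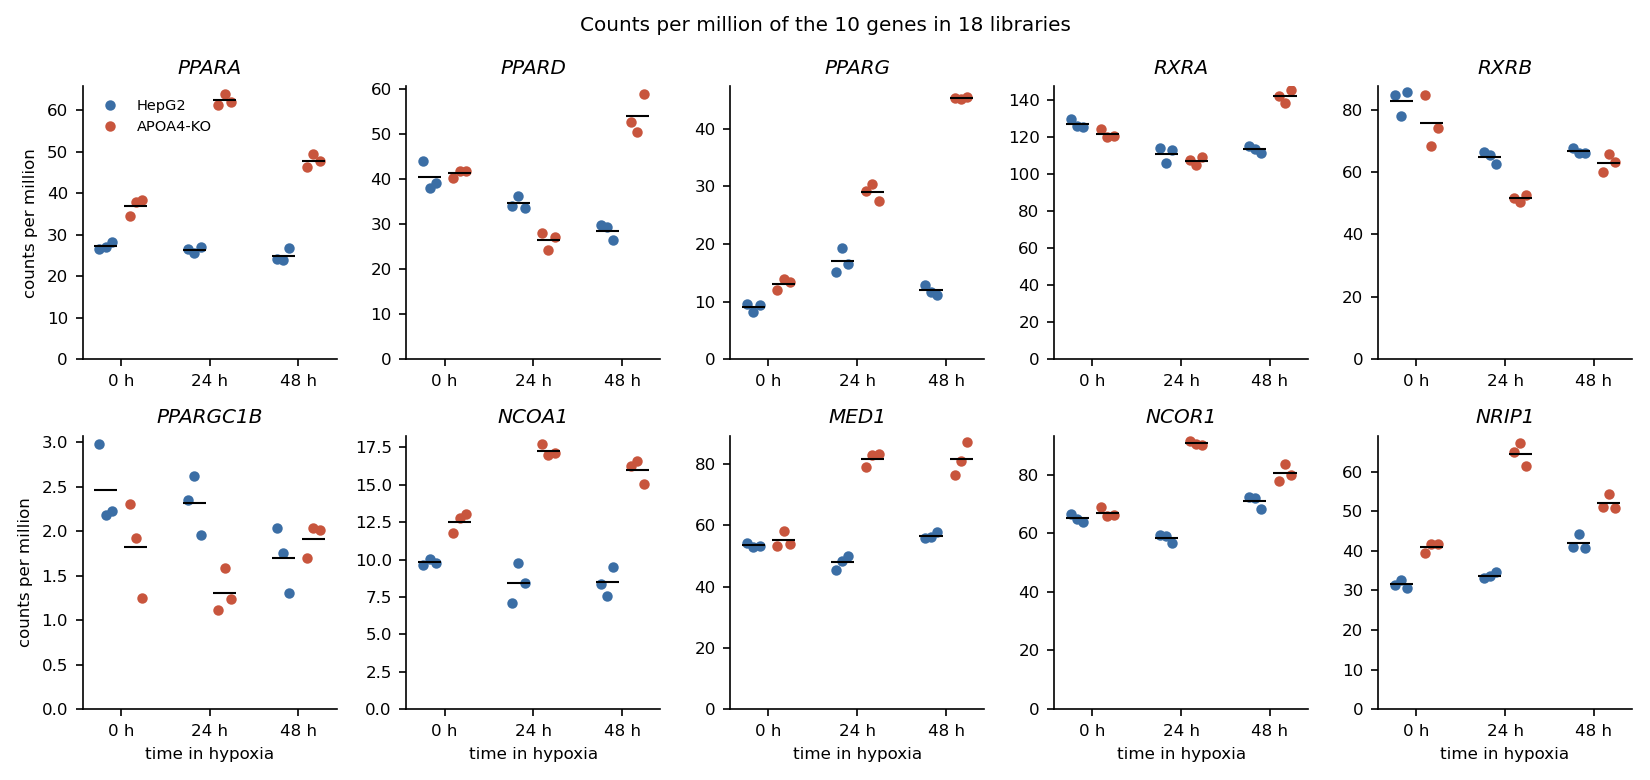
CPM of each gene in each library (points, 3 per group, HepG2 in blue and APOA4-KO in red) by hours of hypoxia, with a line at each group's mean; each panel starts at 0 and has its own scale. PPARA, NCOA1, NCOR1 and NRIP1 are highest in all 3 APOA4-KO libraries at 24 h, and PPARD, PPARG and RXRA in those at 48 h.

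The promoter windows of the 3 PPAR genes are shown first, because these receptors moved in different ways. RefSeq (GRCh38.p14) gives 23 windows for the 10 genes, each from 250 bases before to 50 bases after a gene start. Capitals mark ACGTG and GCGTG, the cores bound by hypoxia-inducible factors, and AGGTCA, the hexamer of PPAR and RXR sites, on either strand. PPARA and PPARG have more than 1 window, and for each gene the one with the lowest start is printed. The other PPARA window holds none of these motifs, and each other PPARG window holds at most 1 match. The windows of PPARA (chr22:46150276-46150575, plus strand), PPARD (chr6:35342308-35342607, plus strand) and PPARG (chr3:12287118-12287417, plus strand) read as follows.
PPARA: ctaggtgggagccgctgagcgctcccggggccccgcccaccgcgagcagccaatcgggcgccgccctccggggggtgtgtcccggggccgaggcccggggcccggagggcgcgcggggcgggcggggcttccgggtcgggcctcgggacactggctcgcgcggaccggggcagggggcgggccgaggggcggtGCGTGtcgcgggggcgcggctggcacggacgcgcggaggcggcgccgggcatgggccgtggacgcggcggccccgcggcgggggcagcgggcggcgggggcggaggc
PPARD: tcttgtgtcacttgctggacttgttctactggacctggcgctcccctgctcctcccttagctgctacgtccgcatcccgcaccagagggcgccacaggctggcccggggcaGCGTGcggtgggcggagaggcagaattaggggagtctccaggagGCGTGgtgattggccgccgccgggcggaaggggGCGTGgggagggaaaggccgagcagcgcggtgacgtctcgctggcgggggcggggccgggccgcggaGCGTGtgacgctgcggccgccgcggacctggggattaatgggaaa
PPARG: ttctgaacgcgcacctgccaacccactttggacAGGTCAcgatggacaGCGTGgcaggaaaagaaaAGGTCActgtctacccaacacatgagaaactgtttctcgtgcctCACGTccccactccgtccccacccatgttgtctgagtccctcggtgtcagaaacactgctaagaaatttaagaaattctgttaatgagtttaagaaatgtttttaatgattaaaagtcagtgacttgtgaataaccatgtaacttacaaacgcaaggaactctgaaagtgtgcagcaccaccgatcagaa

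The PPARA window holds 1 GCGTG, 57 bases before the start, and the PPARD window holds 4, at 139, 95 and 62 bases before and 5 bases after the start. The PPARG window holds 2 AGGTCA, 1 ACGTG and 1 GCGTG. Over the 10 genes, 8 windows of 5 genes (PPARA, PPARD, PPARG, RXRB and NRIP1) hold ACGTG or GCGTG, as do 48.45% of all 35116 windows of the reference, and 3 windows, all of PPARG, hold AGGTCA, against 13.83% of all windows. ACGTG alone is in 21.41% of all windows and GCGTG alone in 36.54%. No window of RXRA, PPARGC1B, NCOA1, NCOR1 or MED1 holds either core, which says nothing about binding elsewhere. Some windows of a gene overlap, so that the same match is counted in each of them. The PPARG windows that start at 12288810 and 12288820 hold the same hexamer, and the RXRB windows share 1 core. The numbers of windows are therefore not numbers of separate sites, and they were not tested against the shares of all windows. None of these motifs contains another, and a match is a description of the letters only.

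PPARA (ENSG00000186951, chr22:46150521-46243756, plus strand), the receptor of fatty acid oxidation, was higher in APOA4-KO at all 3 times and rose with hypoxia in APOA4-KO. Gene positions are given as GENCODE 29 has them, on GRCh38. Before hypoxia, PPARA had 26.6, 27.2 and 28.3 CPM in the HepG2 libraries and 34.6, 37.9 and 38.3 in those of APOA4-KO. PPARA had 26.5, 25.7 and 27.0 against 61.3, 63.9 and 62.1 after 24 h, and 24.1, 24.0 and 26.9 against 46.5, 49.5 and 47.8 after 48 h. Every APOA4-KO library lay above every HepG2 library, and those of 24 h lay above the other 15. Between the lines, PPARA differed by a log2 fold change of 0.44 ± 0.05 (SE), adjusted p = 1.82e-06 before hypoxia, 1.24 ± 0.05 (SE), adjusted p = 3.35e-13 after 24 h and 0.94 ± 0.05 (SE), adjusted p = 1.08e-11 after 48 h. From 0 h it rose in APOA4-KO by 0.76 ± 0.05 to 24 h and by 0.37 ± 0.05 to 48 h (adjusted p = 2.87e-10 and 3.70e-06), while the changes in HepG2 were −0.05 ± 0.05 and −0.13 ± 0.05 (adjusted p = 0.533 and 0.0678). The rise was called in the edited line and no change was called in HepG2. For PPARA the interaction, which is positive where APOA4-KO changed upwards relative to HepG2, was 0.81 ± 0.07 (SE), adjusted p = 6.11e-08 to 24 h and 0.50 ± 0.07 (SE), adjusted p = 1.34e-05 to 48 h. The HepG2 value to 48 h became −0.17 (adjusted p = 0.0250) when HepG2 48 h replicate 3, the highest of its group, was left out. In bulk RNA, fewer cells with a transcript and less of it per cell cannot be told apart, here and for all genes below.

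PPARD (ENSG00000112033, chr6:35342558-35428191, plus strand), the PPAR found in most tissues, took opposite directions in APOA4-KO at the 2 times. Before hypoxia, PPARD had 44.1, 38.0 and 39.3 CPM in the HepG2 libraries and 40.2, 41.8 and 41.9 in those of APOA4-KO. PPARD had 34.1, 36.4 and 33.6 against 27.98, 24.3 and 27.1 after 24 h, and 29.9, 29.3 and 26.6 against 52.8, 50.6 and 59.0 after 48 h. The lines overlapped at 0 h, the APOA4-KO libraries lay below those of HepG2 at 24 h and above them at 48 h. Between the lines, PPARD differed by a log2 fold change of 0.03 ± 0.07 (SE), adjusted p = 0.821 before hypoxia, −0.39 ± 0.07 (SE), adjusted p = 9.06e-05 after 24 h and 0.92 ± 0.07 (SE), adjusted p = 1.29e-09 after 48 h. PPARD fell in HepG2, with a log2 fold change of −0.22 to 24 h and −0.50 to 48 h (adjusted p = 0.0184 and 1.60e-05). The fall to 24 h was lost when single libraries were left out, with −0.15 (adjusted p = 0.151) without HepG2 0 h replicate 1, −0.21 (adjusted p = 0.0598) without HepG2 24 h replicate 1 and −0.20 (adjusted p = 0.0729) without HepG2 24 h replicate 3, as it was with median-ratio size factors, at −0.19 (adjusted p = 0.0509), and with only the groups compared, at −0.17 (adjusted p = 0.0673). The edited line moved down and then up. In APOA4-KO the log2 fold change was −0.64 to 24 h (adjusted p = 2.34e-07) and 0.39 to 48 h (adjusted p = 8.21e-05). For PPARD the interaction was −0.42 ± 0.10 (SE), adjusted p = 0.00219 to 24 h and 0.89 ± 0.10 (SE), adjusted p = 5.18e-07 to 48 h.

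PPARG (ENSG00000132170, chr3:12287368-12434356, plus strand), the receptor of fat storage, rose with hypoxia in both lines, and the rise to 48 h was larger in APOA4-KO. Before hypoxia, PPARG had 9.53, 8.13 and 9.48 CPM in the HepG2 libraries and 11.9, 14.0 and 13.4 in those of APOA4-KO. PPARG had 15.1, 19.4 and 16.5 against 29.2, 30.3 and 27.4 after 24 h, and 12.9, 11.7 and 11.2 against 45.3, 45.2 and 45.5 after 48 h. The HepG2 libraries of 0 h lay below the other 15 and the APOA4-KO libraries of 48 h above the other 15, with group means of 9.05 and 45.3 CPM, a ratio of 5.01. Between the lines, PPARG differed by a log2 fold change of 0.53 ± 0.09 (SE), adjusted p = 1.03e-04 before hypoxia, 0.77 ± 0.09 (SE), adjusted p = 3.12e-07 after 24 h and 1.93 ± 0.09 (SE), adjusted p = 8.90e-13 after 48 h. From 0 h, PPARG rose in HepG2 by 0.91 ± 0.09 to 24 h and 0.40 ± 0.09 to 48 h (adjusted p = 1.53e-07 and 0.00181), and in APOA4-KO by 1.14 ± 0.09 and 1.79 ± 0.09 (adjusted p = 1.74e-09 and 2.55e-12). Both lines were thus called higher at both times. For PPARG the interaction was 0.23 ± 0.12 (SE), adjusted p = 0.169 to 24 h, which did not pass, and 1.39 ± 0.12 (SE), adjusted p = 3.34e-08 to 48 h, which did. Without HepG2 24 h replicate 2, the highest HepG2 library of that time, the difference to 24 h was 0.34 (adjusted p = 0.0274).

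The share of each PPAR in their sum varied between the groups. Of the summed FPKM of the 3 receptors, PPARG held 6.28% ± 0.357 (SD, n = 3) in HepG2 before hypoxia, 12.6% ± 1.15 after 24 h and 10.6% ± 0.423 after 48 h. The corresponding shares in APOA4-KO were 8.26% ± 0.407, 18.5% ± 1.12 and 19.3% ± 0.845. PPARD held the largest share in every group, between 45.4% ± 2.43 in APOA4-KO at 24 h and 76.3% ± 1.47 in HepG2 at 0 h. PPARA held 36.2% ± 1.49 in APOA4-KO at 24 h and between 17.4% and 21.2% in the other 5 groups. Per base of GENCODE 29 exon, a choice made after seeing the data, the share of PPARG was 15.2% in HepG2 and 19.3% in APOA4-KO before hypoxia, 27.6% and 37.5% after 24 h, 24.0% and 38.8% after 48 h, and PPARG then stood above PPARD (34.8%) in APOA4-KO at 24 h. The shares themselves therefore rest on the length used, and these values were not tested. The paper names an Ensembl release as its human reference, and the length of PPARG in it was not checked. The GENCODE 29 exon length may therefore not be that of the gene model counted. RXRA and RXRB together had 2.67, 2.31 and 2.85 times the summed FPKM of the PPARs at the successive times in HepG2, and 2.25, 1.69 and 1.43 times in APOA4-KO. Per base of GENCODE 29 exon the ratios were 2.48, 1.97 and 2.49 in HepG2, and 2.03, 1.34 and 1.12 in APOA4-KO.

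**Figure D4:**
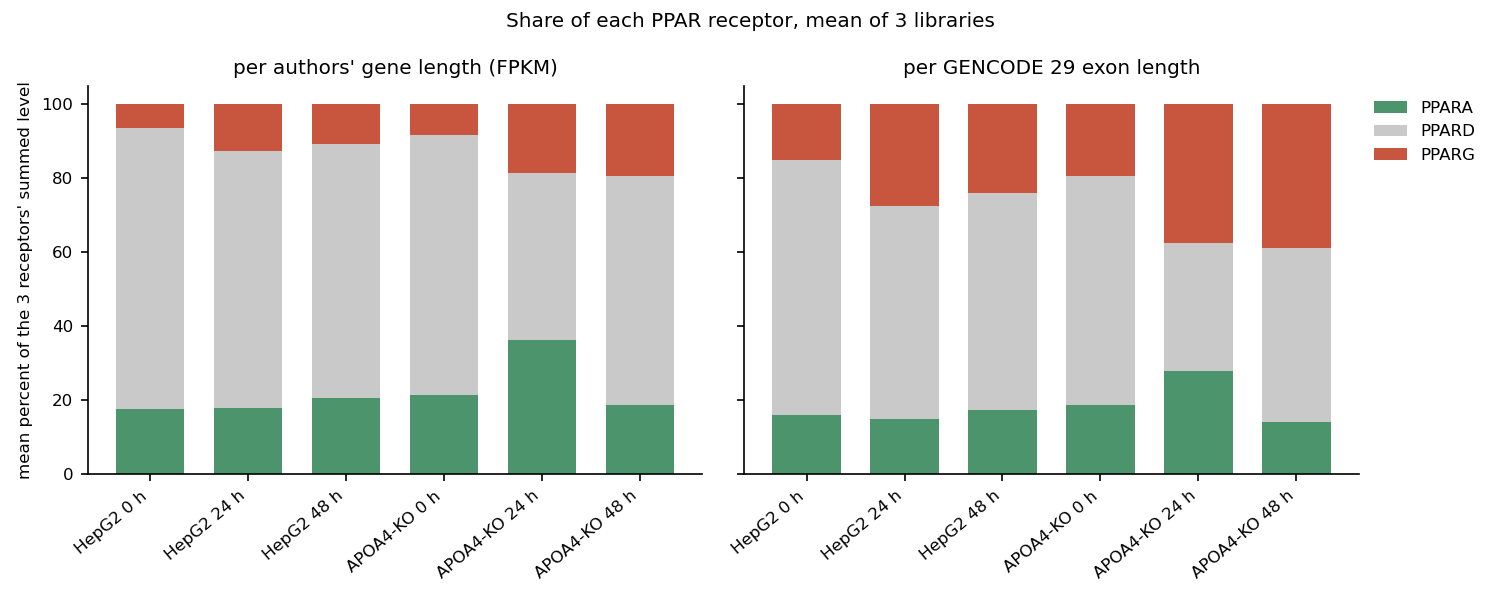
Mean percent of the summed level of PPARA, PPARD and PPARG held by each receptor in the 6 groups, per length implied by the deposited FPKM (left) and per GENCODE 29 exon length (right). PPARG takes up more in APOA4-KO at 24 h and 48 h in both panels, but with 18.5% and 19.3% on the left and 37.5% and 38.8% on the right.

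RXRA (ENSG00000186350, chr9:134317098-134440585, plus strand), the main RXR of liver, moved little. Before hypoxia, RXRA had 129.7, 126 and 125 CPM in the HepG2 libraries and 124, 120.2 and 120.4 in those of APOA4-KO. RXRA had 114, 106 and 113 against 107, 105 and 109.3 after 24 h, and 115, 114 and 111 against 142, 139 and 146 after 48 h. The APOA4-KO libraries of 48 h lay above the other 15 in CPM, although the mean of the highest group was only 1.32 times that of the lowest. In FPKM, which have no TMM scaling, they overlapped those of HepG2 at 0 h (10.41 to 10.91 against 10.34 to 10.73). Between the lines, RXRA differed by a log2 fold change of −0.06 ± 0.03 (SE), adjusted p = 0.160 before hypoxia, −0.05 ± 0.03 (SE), adjusted p = 0.225 after 24 h and 0.32 ± 0.03 (SE), adjusted p = 5.10e-08 after 48 h. Without HepG2 24 h replicate 2, the value at 24 h was −0.08 (adjusted p = 0.0486). RXRA fell to 24 h in both lines (HepG2 −0.19 ± 0.03, APOA4-KO −0.18 ± 0.03), and to 48 h it fell in HepG2 (−0.16 ± 0.03) and rose in APOA4-KO (0.22 ± 0.03), where the adjusted p were 8.60e-05, 8.26e-05, 5.83e-04 and 7.01e-06. With library size alone, the rise in APOA4-KO was 0.07 (adjusted p = 0.0841). At 24 h the lines lay close together, and at 48 h they lay apart. For RXRA the interaction was 0.01 ± 0.04 (SE), adjusted p = 0.896 to 24 h and 0.39 ± 0.04 (SE), adjusted p = 1.13e-06 to 48 h.

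RXRB (ENSG00000204231, chr6:33193588-33200688, minus strand), the RXR expressed in most tissues, fell with hypoxia in both lines. It shares 244 of its 3920 exon bases with the antisense gene SLC39A7, and whether the counting used the strand is not stated. Before hypoxia, RXRB had 84.6, 78.1 and 85.8 CPM in the HepG2 libraries and 84.8, 68.4 and 74.1 in those of APOA4-KO. RXRB had 66.3, 65.5 and 62.6 against 51.8, 50.5 and 52.6 after 24 h, and 67.8, 66.1 and 66.3 against 60.1, 65.7 and 63.3 after 48 h. The APOA4-KO libraries of 24 h lay below the other 15. The log2 fold change from 0 h in HepG2 was −0.35 ± 0.06 (SE), adjusted p = 1.11e-04 to 24 h and −0.31 ± 0.06 (SE), adjusted p = 4.57e-04 to 48 h. In APOA4-KO it was −0.55 ± 0.06 (SE), adjusted p = 2.25e-07 to 24 h and −0.26 ± 0.06 (SE), adjusted p = 9.48e-04 to 48 h. The falls were called in both lines. For RXRB the interaction was −0.20 ± 0.08 (SE), adjusted p = 0.0819 to 24 h and 0.05 ± 0.08 (SE), adjusted p = 0.727 to 48 h. Without APOA4-KO 0 h replicate 2, the lowest of its group, the former was −0.25 (adjusted p = 0.0164). Between the lines, RXRB differed by a log2 fold change of −0.13 ± 0.06 (SE), adjusted p = 0.114 before hypoxia, −0.33 ± 0.06 (SE), adjusted p = 1.14e-04 after 24 h and −0.08 ± 0.06 (SE), adjusted p = 0.279 after 48 h. Without APOA4-KO 0 h replicate 1, the highest of its group, the value before hypoxia was −0.22 (adjusted p = 0.00311). With library size alone the value at 48 h was −0.23 (adjusted p = 0.00207).

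PPARGC1B (ENSG00000155846, chr5:149730298-149855022, plus strand), a coactivator of mitochondrial and lipid genes, was the least counted of the 10 genes and had the widest errors. Before hypoxia, PPARGC1B had 251, 180 and 185 counts in the HepG2 libraries and 183, 173 and 108 in those of APOA4-KO. PPARGC1B had 181, 233 and 162 against 94, 123 and 100 after 24 h, and 191, 148 and 118 against 122, 154 and 145 after 48 h. The lines overlapped at 0 h and 48 h, and at 24 h the APOA4-KO libraries lay below those of HepG2. The log2 fold change relative to HepG2 was −0.82 ± 0.24 (SE), adjusted p = 0.00821 at 24 h, and it was −0.43 ± 0.24 at 0 h and 0.17 ± 0.24 at 48 h (adjusted p = 0.199 and 0.596). The direction was not the same at all times, and the bars were wide. No change from 0 h passed, with −0.09 ± 0.24 and −0.54 ± 0.24 in HepG2 (adjusted p = 0.848 and 0.113) and −0.48 ± 0.24 and 0.07 ± 0.24 in APOA4-KO (adjusted p = 0.125 and 0.844). Without APOA4-KO 0 h replicate 3, the lowest of its group, the change to 24 h in APOA4-KO was −0.67 (adjusted p = 0.0328).

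NCOA1 (ENSG00000084676, chr2:24491914-24770702, plus strand), a steroid receptor coactivator that brings histone acetyltransferases to nuclear receptors, was higher in APOA4-KO at all 3 times. Before hypoxia, NCOA1 had 9.65, 10.03 and 9.76 CPM in the HepG2 libraries and 11.8, 12.8 and 13.1 in those of APOA4-KO. NCOA1 had 7.08, 9.77 and 8.45 against 17.7, 17.0 and 17.1 after 24 h, and 8.38, 7.60 and 9.52 against 16.3, 16.6 and 15.0 after 48 h. Every APOA4-KO library lay above every HepG2 library. Between the lines, NCOA1 differed by a log2 fold change of 0.35 ± 0.10 (SE), adjusted p = 0.00944 before hypoxia, 1.04 ± 0.10 (SE), adjusted p = 3.98e-08 after 24 h and 0.91 ± 0.10 (SE), adjusted p = 2.09e-07 after 48 h. From 0 h it rose in APOA4-KO by 0.46 ± 0.10 to 24 h and 0.35 ± 0.10 to 48 h (adjusted p = 5.35e-04 and 0.00545), and in HepG2 the changes were −0.22 ± 0.10 and −0.21 ± 0.10 (adjusted p = 0.113 and 0.139). With a library left out, the former ranged from −0.34 (adjusted p = 0.0140) without HepG2 24 h replicate 2 to −0.11 (adjusted p = 0.482) without HepG2 24 h replicate 1. With library size alone it was −0.29 (adjusted p = 0.0313), and the rise in APOA4-KO to 48 h was 0.19 (adjusted p = 0.117). For NCOA1 the interaction was 0.68 ± 0.14 (SE), adjusted p = 6.83e-04 to 24 h and 0.56 ± 0.14 (SE), adjusted p = 0.00334 to 48 h, and the latter was lost on log2(FPKM + 0.1), at 0.36 (adjusted p = 0.0586).

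MED1 (ENSG00000125686, chr17:39404285-39451286, minus strand), the Mediator subunit through which many nuclear receptors contact RNA polymerase, was close in both lines at 0 h and higher in APOA4-KO afterwards. Before hypoxia, MED1 had 54.4, 52.8 and 53.4 CPM in the HepG2 libraries and 53.5, 58.2 and 53.9 in those of APOA4-KO. MED1 had 45.5, 48.5 and 50.1 against 79.2, 83.0 and 83.4 after 24 h, and 56.0, 56.4 and 57.7 against 76.7, 81.0 and 87.2 after 48 h. All 6 APOA4-KO libraries in hypoxia lay above the other 12. Between the lines, MED1 differed by a log2 fold change of 0.04 ± 0.05 (SE), adjusted p = 0.564 before hypoxia, 0.77 ± 0.05 (SE), adjusted p = 1.10e-10 after 24 h and 0.53 ± 0.05 (SE), adjusted p = 1.82e-08 after 48 h. In APOA4-KO it rose by 0.57 ± 0.05 to 24 h and 0.56 ± 0.05 to 48 h (adjusted p = 7.73e-09 and 7.52e-09). In HepG2 it fell to 24 h (−0.16 on the log2 scale, adjusted p = 0.0175), and the change to 48 h was 0.08 (adjusted p = 0.238). The fall was lost without HepG2 0 h replicate 1, at −0.14 (adjusted p = 0.0775), without HepG2 24 h replicate 1, at −0.12 (adjusted p = 0.0996), with median-ratio size factors, at −0.12 (adjusted p = 0.0727), and with only the groups compared, at −0.10 (adjusted p = 0.115). The edited line went up at both times. For MED1 the interaction was 0.72 ± 0.07 (SE), adjusted p = 1.18e-07 to 24 h and 0.48 ± 0.07 (SE), adjusted p = 1.13e-05 to 48 h.

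NCOR1 (ENSG00000141027, chr17:16029157-16218185, minus strand), a corepressor that carries histone deacetylases to receptors without ligand, was highest in APOA4-KO at 24 h. Of its 15404 exon bases, 509 overlap other genes, AC002553.1 and PIGL on the opposite strand. Before hypoxia, NCOR1 had 66.6, 64.7 and 63.9 CPM in the HepG2 libraries and 69.0, 65.9 and 66.1 in those of APOA4-KO. NCOR1 had 59.2, 59.0 and 56.6 against 91.4, 90.3 and 90.2 after 24 h, and 72.2, 71.9 and 68.3 against 77.8, 83.7 and 79.9 after 48 h. The lines overlapped at 0 h and did not at 24 h and 48 h. Between the lines, NCOR1 differed by a log2 fold change of 0.04 ± 0.04 (SE), adjusted p = 0.430 before hypoxia, 0.64 ± 0.04 (SE), adjusted p = 2.16e-11 after 24 h and 0.18 ± 0.04 (SE), adjusted p = 1.91e-04 after 48 h. From 0 h, NCOR1 fell in HepG2 to 24 h (−0.16 ± 0.04) and rose to 48 h (0.12 ± 0.04), and it rose in APOA4-KO at both times (0.44 ± 0.04 and 0.26 ± 0.04), with adjusted p of 0.00170, 0.0134, 4.59e-09 and 3.43e-06. The fall in HepG2 was lost with only the groups compared, at −0.10 (adjusted p = 0.0605). For NCOR1 the interaction was 0.60 ± 0.05 (SE), adjusted p = 3.27e-08 to 24 h and 0.14 ± 0.05 (SE), adjusted p = 0.0313 to 48 h. The results at 48 h depend on the scaling: with library size alone the line difference was 0.03 (adjusted p = 0.438) and the interaction turned to −0.03 (adjusted p = 0.695). The interaction to 48 h was also lost without any 1 of 5 libraries, HepG2 0 h replicate 1, HepG2 48 h replicate 3, APOA4-KO 0 h replicate 2 or 3, and APOA4-KO 48 h replicate 2, at values of 0.11 to 0.13.

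NRIP1 (ENSG00000180530, chr21:14961235-15065936, minus strand), the corepressor RIP140 of fat and energy metabolism, was called higher after 48 h of hypoxia in both lines, and after 24 h in APOA4-KO. Of its 8497 exon bases, 649 overlap AF127577.1 on the opposite strand or AF127577.4 on the same strand. Before hypoxia, NRIP1 had 31.4, 32.6 and 30.6 CPM in the HepG2 libraries and 39.5, 41.8 and 41.8 in those of APOA4-KO. NRIP1 had 33.1, 33.6 and 34.5 against 64.9, 67.2 and 61.4 after 24 h, and 41.0, 44.3 and 40.7 against 51.2, 54.2 and 50.9 after 48 h. At each time the APOA4-KO libraries lay above those of HepG2, and those of 24 h lay above the other 15. Between the lines, NRIP1 differed by a log2 fold change of 0.38 ± 0.05 (SE), adjusted p = 3.03e-06 before hypoxia, 0.93 ± 0.05 (SE), adjusted p = 4.10e-12 after 24 h and 0.31 ± 0.05 (SE), adjusted p = 1.05e-05 after 48 h. From 0 h it rose in APOA4-KO by 0.65 ± 0.05 to 24 h and 0.34 ± 0.05 to 48 h (adjusted p = 6.09e-10 and 3.23e-06). In HepG2 it rose by 0.41 ± 0.05 to 48 h (adjusted p = 1.27e-06), and the change to 24 h was 0.10 ± 0.05 (adjusted p = 0.126). The 24 h change in HepG2 was called with median-ratio size factors, at 0.13 (adjusted p = 0.0349), with DESeq2, at 0.13 (adjusted p = 0.0258), and with only the groups compared, at 0.15 (adjusted p = 0.0295). The lines were both called higher at 48 h. For NRIP1 the interaction was 0.55 ± 0.06 (SE), adjusted p = 1.84e-06 to 24 h and −0.07 ± 0.06 (SE), adjusted p = 0.462 to 48 h, and the latter was −0.24 (adjusted p = 0.00700) with library size alone.

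Gene length moved with the results at 24 h. By FPKM length, 8 of the 10 genes have 7000 bases or more, and PPARD and RXRB are shorter. Over all tested genes of at least 7000 bases, the median log2 fold change between APOA4-KO and HepG2 was 0.05 before hypoxia, 0.25 after 24 h and 0.11 after 48 h, whereas over genes of 2000 to 4000 bases it was −0.06, −0.14 and −0.15. Among the longer of the 10 genes, PPARA, PPARG, NCOA1, MED1, NCOR1 and NRIP1 lay at or above the upper quartile of genes of that length after 24 h (0.64), RXRA was not called and PPARGC1B was lower. The part of length in the results was not tested.

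Further genes of the same pathway were counted from lists. For comparison with this list and those below, 12.9% of all tested genes were higher and 17.6% lower in APOA4-KO before hypoxia. After 24 h the shares were 23.6% and 24.6%, and after 48 h they were 23.5% and 27.3%. The third RXR, RXRG, did not pass the filter on low counts. Of 25 other coregulators, all tested, in APOA4-KO 9 were higher and 6 lower than in HepG2 before hypoxia, 17 higher and 6 lower after 24 h, and 17 higher and 5 lower after 48 h, with medians of 0.07, 0.44 and 0.36. At 48 h the 2 largest increases were in BCL6, a transcriptional repressor, with 131, 137 and 139 CPM in APOA4-KO against 37.0, 36.8 and 34.8 in HepG2 (log2 fold change 1.91 ± 0.06), and PPARGC1A, the coactivator of mitochondrial biogenesis and gluconeogenesis, with 44.7, 46.5 and 43.7 against 13.7, 13.9 and 12.9 (1.74 ± 0.07). The 2 largest decreases were in NCOA5 (−1.39 ± 0.04) and GPS2 (−0.60 ± 0.04), a subunit of the NCOR complex. The libraries of the lines did not overlap for any of the 4, and their edgeR adjusted p lay between 1.35e-15 and 1.17e-09.

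Of 32 other Mediator subunits, all tested, 6 were higher and 9 lower in APOA4-KO before hypoxia, 10 higher and 13 lower after 24 h, and 10 higher and 12 lower after 48 h, with medians of −0.07, −0.15 and −0.11, so that MED1 (0.04, 0.77 and 0.53) lay above the median of its complex at each time. MED13L (1.27) and MED15 (0.79) had the largest increases at 48 h and MED20 (−0.99) and MED22 (−0.98) the largest decreases. Of 13 other nuclear receptors that pair with RXR, 1 was higher and 5 lower before hypoxia (12.9% and 17.6% of all tested genes). After 24 h 3 were higher and 6 lower (23.6% and 24.6%), and again 3 higher and 6 lower after 48 h (23.5% and 27.3%). Their medians were −0.20, −0.26 and −0.25. NR4A1, an immediate early receptor, had 58.5, 57.8 and 50.0 CPM in APOA4-KO at 48 h against 14.1, 12.5 and 14.2 in HepG2 (2.03 ± 0.07), and THRA, a thyroid hormone receptor, had a log2 fold change of 0.73. RARG (−0.69), a retinoic acid receptor, and NR1I2 (−0.62), the pregnane X receptor, were lowest. The edgeR adjusted p of these 8 genes lay between 2.68e-14 and 1.97e-04.

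Of 32 PPAR target genes, 26 were tested, and ADIPOQ, CIDEA, CYP4A11, FABP4, FGF21 and LPL did not pass the filter on low counts. In APOA4-KO, 9 were higher and 5 lower than in HepG2 before hypoxia, 14 higher and 3 lower after 24 h, and 12 higher and 7 lower after 48 h, with medians of 0.29, 0.32 and 0.29. In APOA4-KO, 8 rose and 10 fell to 24 h and 8 rose and 12 fell to 48 h (medians of −0.16 and −0.28), and in HepG2 6 rose and 11 fell to 24 h and 4 rose and 5 fell to 48 h (medians of −0.18 and −0.08). Of all tested genes, 21.5% rose and 22.8% fell to 24 h in APOA4-KO, and 23.9% and 25.9% to 48 h. The shares in HepG2 were 11.4% and 18.3% to 24 h, and 13.1% and 14.6% to 48 h. At 48 h the largest increases were in TXNIP, an inhibitor of thioredoxin and of glucose uptake, with 345, 342 and 343 CPM in APOA4-KO against 77.8, 73.5 and 74.6 in HepG2 (2.19 ± 0.04), and FABP1, the liver fatty acid binding protein, with 151, 138 and 132 against 38.3, 34.01 and 37.1 (1.94 ± 0.08). The largest decreases were in SLC25A20 (−1.01 ± 0.08), the acylcarnitine carrier of mitochondria, and EHHADH (−0.73 ± 0.06), an enzyme of peroxisomal oxidation. The edgeR adjusted p of these 4 genes lay between 4.43e-19 and 6.32e-09.

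The genes whose pattern over the 18 libraries was most like that of PPARA, by Pearson's r of log2(CPM + 1) among 9725 genes that averaged 500 counts or more, were WDFY3 (r = 0.979), SLC6A14 (0.978) and ZFHX3 (0.976). Most like PPARG were DUSP6 (0.992), FILIP1L (0.990) and IGFBP3 (0.987). The libraries share their 6 groups and their scaling, so these values describe the pattern and carry no test.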

How the data were processed

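Poly(A) RNA of 18 libraries was sequenced. By the paper's methods, trimming used fastp, alignment to GRCh38.p13 used HISAT2 and counting used featureCounts. The labels also name StringTie, and which tool gave the deposited counts was not tested. The deposited counts are whole numbers per gene without normalization. The deposited FPKM values are counts scaled by gene length and library total, for 33601 genes. All samples were mapped to their groups by title.

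Counts were tested in R 4.3.3 with edgeR 4.0.16 (quasi-likelihood test, filterByExpr, TMM, 1 coefficient per group, all 18 libraries, Benjamini-Hochberg adjustment over 19743 genes). Standard errors are the log2 fold change divided by the square root of F. CPM are TMM-scaled. On simulated counts, the script was tested before use. Gene symbols came from the reference for 61757 of the 61806 IDs, and positions and exon overlaps from GENCODE 29 (GRCh38). Alternatives were library size alone, median-ratio size factors, DESeq2 1.42.0, no filter, only the groups compared, limma 3.58.1 on log2(FPKM + 1) and log2(FPKM + 0.1), the replicate number as a block, and leaving out each library. The levels per GENCODE 29 exon length and, as an alternative to log2(CPM + 1), the likeness on log2(FPKM + 1) were chosen after seeing the data. Replicate pairs differed with a chi-square per gene of 10.3 to 23.4, where each count was taken as 1 read, and none was counted as the same library. As a count need not be a single read pair, this scale may overstate the excess over sampling noise.

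The 10 genes and the lists of other genes were chosen with earlier results of these data known, and the lists were written from general knowledge. The text names all 10 genes, and of each further list the 2 genes that were most increased and the 2 most decreased in APOA4-KO at 48 h, if called and with a mean of 500 or more counts in the higher group. It also names the 3 genes most like PPARA and PPARG, APOA4 as a check of the edit and EPO as a check of the hypoxia.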

Additional observations from a re-analysis of the deposited data

Results flagged for a closer look

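The change from 0 h differed between APOA4-KO and HepG2 by the interaction test of edgeR in 13 cases over the 10 genes and both times of hypoxia. To 24 h the difference in log2 fold change was positive for PPARA (0.81), MED1 (0.72), NCOA1 (0.68), NCOR1 (0.60) and NRIP1 (0.55) and negative for PPARD (−0.42), with adjusted p between 3.27e-08 and 0.00219. To 48 h it was positive for PPARG (1.39), PPARD (0.89), NCOA1 (0.56), PPARA (0.50), MED1 (0.48), RXRA (0.39) and NCOR1 (0.14), with adjusted p between 3.34e-08 and 0.0313. PPARD is the gene whose difference was negative at the first time and positive at the second. The 2 interactions share the 0 h libraries of both lines.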

How the results depend on the processing

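The number of the 10 genes called stayed within 1.5 times its value in all 9 comparisons and under all alternatives. With a library left out it ranged from 4 to 5 at 0 h, 9 to 10 at 24 h and 8 to 8 at 48 h between the lines. Within the lines it ranged from 4 to 7 and 6 to 7 in HepG2 and 9 to 10 and 9 to 9 in APOA4-KO, and for the differences between the lines from 6 to 7 at both times. Of the 90 results of single genes, a left-out library ended the call of 3, added a call for 7 and turned the sign of 5 that were not called. The other alternatives ended the call of 7 results whose sign stayed and added a call for 8. They also ended the call of the NCOR1 48 h interaction, whose sign turned. With library size alone and limma on both FPKM scales the call ended for NCOR1 between the lines and in its interaction, and for RXRA and NCOA1 in APOA4-KO, all at 48 h. These settings added a call for RXRB between the lines and the NRIP1 interaction at 48 h. In HepG2 at 24 h PPARD and MED1 lost theirs with median-ratio size factors and, as did NCOR1, with only the groups compared, NRIP1 gained one with these and DESeq2, and NCOA1 gained one with library size alone and on log2(FPKM + 0.1), on which its 48 h interaction was lost. Further calls were added for the RXRB 24 h interaction with median-ratio size factors and DESeq2 (adjusted p = 0.0363 and 0.0127), for PPARA in HepG2 at 48 h with DESeq2 (0.0355), for MED1 there with only the groups compared (0.0316) and for the PPARG 24 h interaction on log2(FPKM + 1) (0.0145). No pairing of the libraries by the replicate numbers of the labels was seen, as 0 of 45 same-number pairs of libraries from different groups had a correlation of deviations over 0.1 (−0.144 to 0.051). With 3 libraries per group this cannot exclude that equal numbers share a culture or run. With the replicate number as a block, 89 of the 90 results kept their direction and call, and PPARA in HepG2 at 48 h gained one (−0.13, adjusted p = 0.0441), so that 7 rather than 6 genes were called there.

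Signs turned as follows. With library size alone, RXRA between the lines at 24 h was 0.017, PPARGC1B in APOA4-KO at 48 h −0.089, and the 48 h interactions of RXRB and NCOR1 −0.12 and −0.030. With limma on log2(FPKM + 1) these 4 were 0.016, −0.012, −0.11 and −0.025, and on log2(FPKM + 0.1) 0.018, −0.048, −0.12 and −0.030. Of them, the NCOR1 interaction (0.14) had been called. The 24 h interaction of RXRA was −0.027 with median-ratio size factors and −0.024 with DESeq2, and PPARA in HepG2 at 24 h was 0.0025 with only the groups compared. With a library left out, PPARD between the lines at 0 h ranged from −0.019 to 0.097, PPARGC1B from −0.19 to 0.076 in HepG2 at 24 h and from −0.13 to 0.29 in APOA4-KO at 48 h, and the interactions of RXRA at 24 h and of RXRB at 48 h from −0.018 to 0.045 and from −0.021 to 0.14. Among the other Mediator subunits, 14 rather than 8 were called in HepG2 at 24 h with library size alone and on log2(FPKM + 0.1). The cause was not tested. PPARGC1B had the lowest counts of the 10 genes, 94 to 251 per library, and the share of counting error in its spread was not tested. The likeness of the genes named to PPARA and PPARG was 0.968 to 0.991 on log2(FPKM + 1).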

Other observations

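The targets of the hypoxia-inducible factor differed between the lines as well. Of 12, 12 were higher and 0 lower in APOA4-KO before hypoxia, 11 higher and 0 lower after 24 h, and 10 higher and 2 lower after 48 h, with median log2 fold changes of 0.51, 1.04 and 1.23. The shares of all tested genes were 12.9%, 23.6% and 23.5% higher and 17.6%, 24.6% and 27.3% lower at these times. At 48 h, CA9, a carbonic anhydrase of the cell surface, had 410, 416 and 404 CPM in APOA4-KO against 95.2, 92.0 and 101 in HepG2 (2.09 ± 0.06), and ANKRD37 had 22.1, 21.2 and 21.4 against 4.75, 5.06 and 5.14 (2.12 ± 0.14). PDK1 (−0.38 ± 0.05), a kinase that blocks pyruvate dehydrogenase, and PFKFB4 (−0.27 ± 0.03), a regulator of glycolysis, were lower. The edgeR adjusted p of these 4 genes lay between 3.40e-16 and 3.42e-06.

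Of 8 hepatocyte markers, 6 were higher and 2 lower in APOA4-KO before hypoxia and again after 24 h, and 7 were higher and 1 lower after 48 h. Of 12 markers of other liver cell types, 10 were tested, with 4 higher and 1 lower before hypoxia, 2 higher and 2 lower after 24 h, and 3 higher and 1 lower after 48 h. At these times 12.9%, 23.6% and 23.5% of all tested genes were higher and 17.6%, 24.6% and 27.3% lower.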
